A study of Rattus norvegicus with 12 samples.

Results

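The genes described here encode the receptor, kinases, transcription factor and feedback proteins of the leukaemia inhibitory factor (LIF) pathway. They were chosen by name as every probe set whose single gene symbol was Il6st, Lifr, Osmr, Jak1, Jak2, Stat3, Socs3 or Pim1. Of these 8 genes, 7 were named on the array, by 13 of the 20826 probe sets that named 1 gene (14217 genes in all). No probe set named Osmr, which encodes a receptor subunit for oncostatin M, so it has no value here. Il6st had 4 probe sets, Lifr, Jak1 and Stat3 had 2 each, and Jak2, Socs3 and Pim1 had 1 each.

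LIF binds its receptor Lifr, which pairs with Il6st (gp130), the signalling subunit shared by the interleukin-6 family of cytokines. The kinases Jak1 and Jak2 are held on these receptor tails and phosphorylate Stat3, which then enters the nucleus and switches on genes. Among its targets are Socs3, an inhibitor that closes a feedback loop on the receptor and the kinases, and Pim1, a serine/threonine kinase that promotes survival. In mouse embryonic stem (ES) cells this route is known for supporting self-renewal, and phosphorylation, which an RNA array does not measure, is its main switch.

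The study measured RNA on Affymetrix Rat Genome 230 2.0 arrays in 4 groups of 3 biological replicates, all from inbred Dark Agouti (DA) rats. RAH-6 and RAH-2 were lines of androgenetic haploid ES cells, named RahES in the labels, whose genome comes from sperm alone. DA5-3 was a diploid ES line, and the fourth group was freshly isolated round sperm cells, the haploid cells that follow meiosis in the testis. All ES lines were kept in N2B27-2i, a serum-free medium with a pair of kinase inhibitors, and were dissociated with trypsin; the labels do not name added LIF. With 1 diploid line and 2 haploid lines, ploidy, parental origin and differences between lines cannot be told apart, and differences between ES cells and round sperm cells also cover culture against fresh isolation. Replicates were separate samples of a line or of round sperm cells, so p-values measure the spread between such samples.

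Across the 12 arrays, signals of 100 or more were found for 40.3 to 49% of probe sets, and Pearson correlations between replicates lay between 0.967 and 0.984 over probe sets. Labels fitted the sums of the defining markers that the array names: 8 round spermatid markers summed to 221706 to 240693 in round sperm cells against 105 to 215 in ES cells, and 6 pluripotency markers summed to 29014 to 37615 in ES cells against 443 to 530. Among these 6, Klf2 alone gave 12928 to 16687 in ES cells, and Fgf4 stayed low at 50.1 to 107. The ratio of the 3' to the 5' control probe sets of Gapdh, which rises as RNA is degraded or copied short, averaged 1.14 in RAH-6, 1.26 in RAH-2, 1.47 in DA5-3 and 2.18 in round sperm cells. The same ratio for actin averaged 3.09, 4.36, 6.19 and 4.09 in that order of groups, so that DA5-3 was highest there. Their part in the differences below was not tested.

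Windows at annotated starts of Pim1 and Stat3 are shown because these genes lay on opposite sides of the comparison between ES cells and round sperm cells. Each window runs from 250 bases before to 50 bases after the 1 start per gene that the RefSeq promoter table of the build GRCr8 uses, at chr20:7556246-7556545 on the plus strand for Pim1 and at chr10:86363310-86363609 on the minus strand for Stat3. In the gene table of the same build that start is the outermost end of the gene for Pim1, and lies 154 bases inside it for Stat3. The letters ATG, which can begin a coding sequence, follow the Pim1 start within a few bases. The Pim1 window may thus lie inside the transcript rather than before it, which was not examined. Sequences are written 5′ to 3′, with CG dinucleotides, the places where DNA methylation occurs in mammals, in capitals.
Pim1: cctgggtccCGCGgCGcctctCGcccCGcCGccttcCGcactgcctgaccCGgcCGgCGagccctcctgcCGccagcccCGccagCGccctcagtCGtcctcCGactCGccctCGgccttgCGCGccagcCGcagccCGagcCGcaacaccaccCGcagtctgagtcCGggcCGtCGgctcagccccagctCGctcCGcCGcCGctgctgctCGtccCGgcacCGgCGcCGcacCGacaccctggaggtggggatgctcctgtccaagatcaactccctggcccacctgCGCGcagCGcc
Stat3: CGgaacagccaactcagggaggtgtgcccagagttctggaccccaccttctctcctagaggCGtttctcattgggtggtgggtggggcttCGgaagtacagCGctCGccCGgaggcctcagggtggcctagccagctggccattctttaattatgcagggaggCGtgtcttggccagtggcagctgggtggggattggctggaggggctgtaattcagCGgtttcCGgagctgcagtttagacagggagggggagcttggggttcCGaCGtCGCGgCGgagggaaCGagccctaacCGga
The Pim1 window held 39 CG dinucleotides at a GC content of 76.7%, and the Stat3 window held 16 at 62.3%. Over 33469 promoter windows of the same table the medians were 7 and 51.7%. The palindromic letters TTCNNNGAA, to which STAT factors can bind, were in none of the windows of the 7 genes that the table holds (Jak2, Il6st, Osmr, Lifr, Stat3, Socs3 and Pim1) and in 8.87% of all windows. The start used is the outermost one for Jak2 too, but lies 241 bases inside the gene for Osmr, 1207 for Socs3, 11360 for Il6st and 11602 for Lifr, so other starts of these genes were not searched. ATTGG, searched on both strands, occurred at 2 places in the Stat3 window and 1 in that of Lifr, and in 37.5% of all windows. GGGCGG, also searched on both strands, occurred at 1 place each in the windows of Jak2, Osmr and Lifr, and in 33.1% of all windows. TGACGTCA (1.83% of all windows) and TATAAA (14.2%) were in none of the 7. These are matches of letters in short windows, and no binding was measured.

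Among ES lines, no probe set of the pathway genes was called changed between RahES and DA5-3. The shares of their probe sets that passed the adjusted p alone or did not overlap were near those of all probe sets, so they are not a result about the pathway. By the adjusted p alone, Il6st at all but its dimmest probe set, Lifr at its brighter one and Jak2 were lower in RahES. The feedback gene Socs3 was higher. The Jak1 probe sets differed most, in opposite directions, with log2 fold changes of 0.81 and -0.74, and Stat3 was the gene that differed least. A change was called at a Benjamini-Hochberg adjusted p below 0.05 over all probe sets tested together with a log2 fold change of 1 or more in size, in limma; 0 of the 13 met both, against 6.24% of the 12377 probe sets tested. By the adjusted p alone 8 of 13 passed (61.5%), 2 higher and 6 lower in RahES, against 53.7% of all probe sets (29.5% higher and 24.2% lower). For 6 of the 13 the RahES and DA5-3 arrays did not overlap, against 41.7% of all probe sets. The median absolute log2 fold change of the 13 was 0.34, and that of all tested was 0.26. All 13 had passed the filter on low signal.

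**Figure D1:**
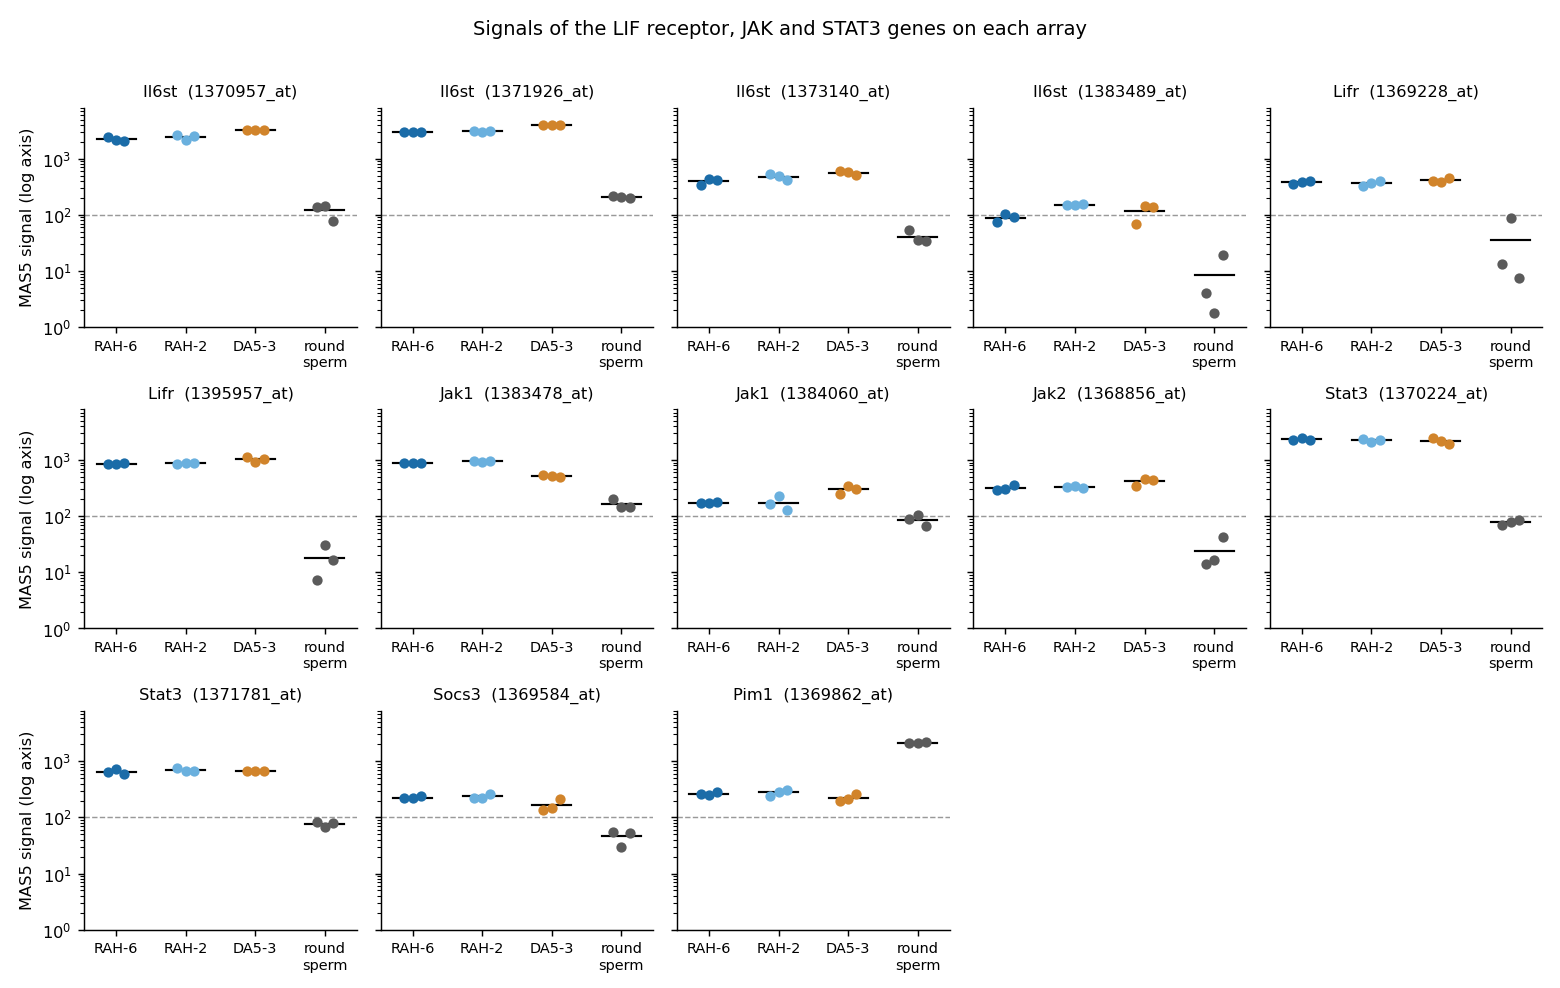
Signal of each of the 13 probe sets on each of the 12 arrays, in MAS5 units on a log axis; points are arrays, black bars are group means and the dashed line marks the signal limit of 100. Round sperm arrays lie below every ES array for all probe sets except that of Pim1, which lies far above them.

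Il6st was read by 4 probe sets, of which 3 were lower in RahES. For the probe set 1370957_at the signals were 2458, 2174 and 2087 in RAH-6, 2627, 2178 and 2528 in RAH-2, and 3286, 3287 and 3298 in DA5-3. Every DA5-3 array was above every RahES array, and the lines RAH-6 and RAH-2 overlapped. The log2 fold change between RahES and DA5-3 was -0.49 ± 0.07 (SE; limma adjusted p = 5.5e-05). The probe set 1371926_at gave 3006, 2987 and 3039 in RAH-6, 3135, 2972 and 3185 in RAH-2, and 4068, 3918 and 3935 in DA5-3. Again no array overlapped, with a log2 fold change of -0.38 ± 0.04 (adjusted p = 9.5e-06).

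Signals of the third Il6st probe set, 1373140_at, were 346, 434 and 416 in RAH-6, 542, 485 and 416 in RAH-2, and 612, 579 and 509 in DA5-3. RAH-2 overlapped DA5-3 here, and the log2 fold change was -0.36 ± 0.10 (adjusted p = 0.0107). It did not pass without DA5-3 replicate 1 (-0.31 ± 0.12, adjusted p = 0.0508). The fourth, 1383489_at, was near the limit of 100, below which signals are hard to tell from background: 73.8, 103 and 91.1 in RAH-6, 152, 150 and 156 in RAH-2, and 70.1, 143 and 139 in DA5-3. All RAH-2 arrays were above all RAH-6 arrays, while DA5-3 spanned most of that range. Its log2 fold change between RahES and DA5-3 was 0.05 ± 0.20 (adjusted p = 0.849).

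Lifr, the subunit that binds LIF itself, showed smaller differences. Its probe set 1395957_at gave 842, 864 and 868 in RAH-6, 858, 882 and 882 in RAH-2, and 1121, 941 and 1028 in DA5-3. No RahES array reached the lowest DA5-3 array, and the log2 fold change was -0.24 ± 0.06 (adjusted p = 0.00629). The other probe set, 1369228_at, gave 358, 383 and 404 in RAH-6, 331, 371 and 400 in RAH-2, and 399, 381 and 457 in DA5-3. These groups overlapped, and the log2 fold change of -0.13 had a 95% interval of -0.33 to 0.07 (adjusted p = 0.246).

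The 2 probe sets of Jak1, a kinase that Il6st depends on for signalling, differed in opposite directions. For 1383478_at the signals were 870, 882 and 896 in RAH-6, 973, 929 and 970 in RAH-2, and 542, 526 and 490 in DA5-3. The lowest RahES array was well above the highest DA5-3 array, a log2 fold change of 0.81 ± 0.06 (adjusted p = 4.7e-07). For 1384060_at they were 174, 170 and 181 in RAH-6, 164, 227 and 127 in RAH-2, and 247, 344 and 309 in DA5-3. Here all DA5-3 arrays were above all RahES arrays, a log2 fold change of -0.74 ± 0.16 (adjusted p = 0.00187). The opposition held in each haploid line, with 0.75 and -0.71 in RAH-6 and 0.86 and -0.77 in RAH-2, so no single direction can be given for Jak1 from these arrays. Without 3 arrays that an earlier report had doubted for their control probe sets (round sperm replicate 1, DA5-3 replicate 1 and RAH-2 replicate 2), the second probe set passed the size limit in RAH-2 (-1.09, adjusted p = 0.000452).

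Jak2, the related kinase, gave 294, 305 and 355 in RAH-6, 329, 345 and 314 in RAH-2, and 344, 455 and 448 in DA5-3. The lowest DA5-3 array lay inside the RahES range, and the log2 fold change was -0.34 ± 0.11 (adjusted p = 0.0178). The adjusted p no longer passed without DA5-3 replicate 2 (-0.27, adjusted p = 0.0919) or DA5-3 replicate 3 (-0.28, adjusted p = 0.0777).

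Stat3, the transcription factor of the pathway, had nearly level signals in the 3 ES lines. The probe set 1370224_at gave 2313, 2430 and 2255 in RAH-6, 2356, 2104 and 2294 in RAH-2, and 2507, 2160 and 1915 in DA5-3. DA5-3 spanned the arrays of both haploid lines, and the log2 fold change of 0.07 had a 95% interval of -0.09 to 0.23 (adjusted p = 0.449). This probe set passed the adjusted p without DA5-3 replicate 1, at 0.17 ± 0.06 (adjusted p = 0.0405), still far under the size limit. The probe set 1371781_at gave 636, 743 and 583 in RAH-6, 775, 669 and 678 in RAH-2, and 684, 680 and 661 in DA5-3. Its log2 fold change was 0.01, with a 95% interval of -0.17 to 0.19 (adjusted p = 0.956), and turned to -0.03 under median centring and -0.05 under quantile normalization.

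The feedback inhibitor Socs3 had the opposite tendency to the receptor genes. Its signals were 221, 218 and 237 in RAH-6, 225, 221 and 261 in RAH-2, and 138, 145 and 216 in DA5-3. All RahES arrays were above all DA5-3 arrays, although DA5-3 replicate 3 came within a few units of them. The log2 fold change was 0.46 ± 0.14 (adjusted p = 0.0147). It did not pass without DA5-3 replicate 1 (0.35, adjusted p = 0.0746) or DA5-3 replicate 2 (0.38, adjusted p = 0.0697). Pim1 gave 260, 252 and 286 in RAH-6, 244, 286 and 312 in RAH-2, and 199, 216 and 261 in DA5-3. These groups overlapped at a log2 fold change of 0.26 ± 0.12 (adjusted p = 0.0714), which passed without RAH-2 replicate 1 (0.31, adjusted p = 0.0434) and without DA5-3 replicate 3 (0.37, adjusted p = 0.0267).

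**Figure D2:**
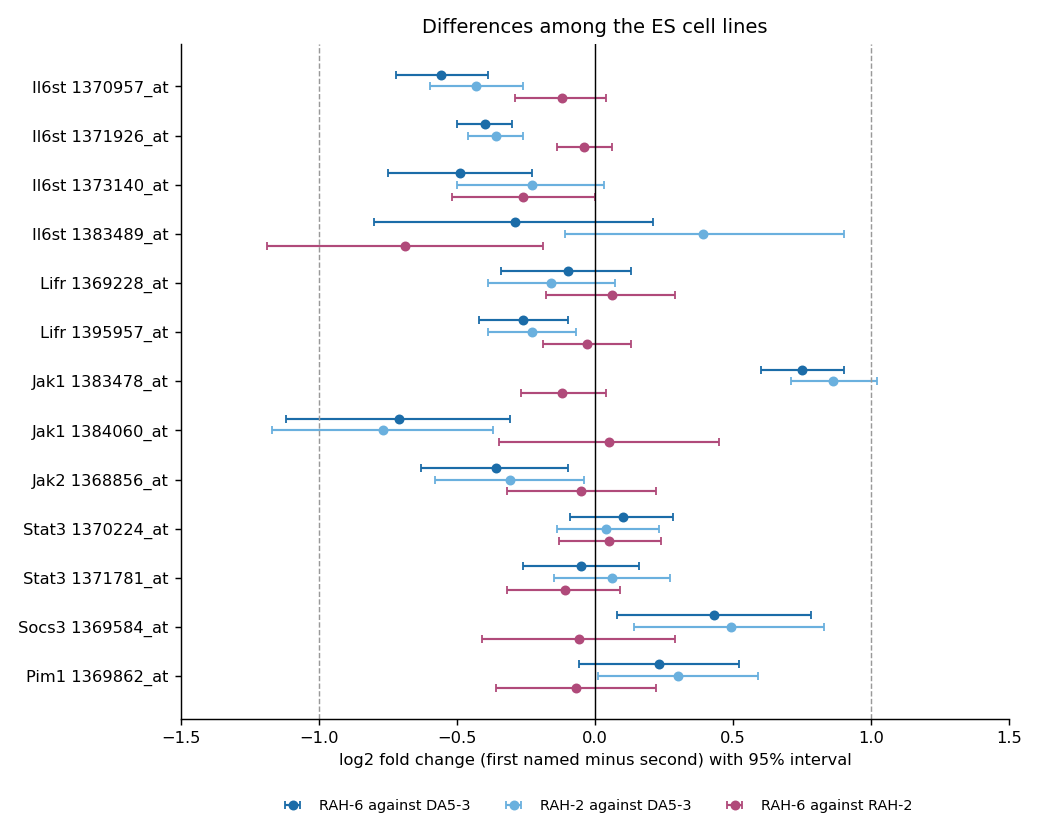
Log2 fold change of each probe set in RAH-6 against DA5-3, RAH-2 against DA5-3 and RAH-6 against RAH-2, with 95% intervals from limma. All values lie inside the size limit of 1 in both directions, and against DA5-3 the Jak1 probe sets lie on opposite sides of 0 in both haploid lines.

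Taken line by line, 0 of 13 probe sets were called in RAH-6 against DA5-3, against 7.37% of all tested, and 8 passed the adjusted p alone against 51.9%. In RAH-2 against DA5-3, 0 of 13 were called against 6.17%, and 6 passed the adjusted p alone against 46.5%. Some of these passes were lost under other settings. For RAH-6, Jak2 did not pass in 4 of 21 alternatives and Socs3 in 11. For RAH-2, Lifr 1395957_at did not pass in 4 of 21 and Socs3 in 5. Both comparisons share the DA5-3 arrays. Between RAH-6 and RAH-2, 0 of 13 were called against 0.671% of all tested, and 0 of 13 passed the adjusted p alone against 15.2%. The largest difference between the haploid lines was that of the dim Il6st probe set 1383489_at, -0.69 ± 0.23 with an adjusted p of 0.0638, which passed without DA5-3 replicate 1 (adjusted p = 0.0124). The next was 1373140_at of the same gene at -0.26 ± 0.12 (adjusted p = 0.169).

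Fibroblast markers also differed between the ES groups. Of 14 listed, 11 passed the filter and all 11 were called lower in RahES than in DA5-3, against 2.92% of all genes. Their summed signal over the 14 was 39507 to 43153 in DA5-3, 5194 to 5422 in RAH-6 and 1358 to 5884 in RAH-2, and 12 of the 14 reached 100 in DA5-3, among them Col1a1 at 5796 to 6125, Vim at 5170 to 5726 and Dcn at 411 to 558. Lum and Thy1 were below 100 on every ES array. Extraembryonic endoderm markers summed to 8991 to 9417 in DA5-3, 6281 to 6447 in RAH-6 and 5868 to 5949 in RAH-2, most of it from Lama1 at 4830 to 6613. Of 7 measured, 4 were called lower in RahES, against 2.92% of all genes, but only 1 in RAH-6 alone against DA5-3. Sox7 went the other way in RAH-6, at 301 to 315 against 137 to 177 in DA5-3. Fbn1 and Gata4 passed the filter only through the DA5-3 arrays, where they are high, so they add nothing to these counts. The part of other cells in the Il6st, Lifr, Jak1, Jak2 and Socs3 differences was not tested. In bulk RNA, fewer cells of a type and less RNA per cell cannot be told apart.

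In single values, most probe sets of the pathway genes differed between round sperm cells and the ES lines, as did most probe sets tested. The genes for the receptor, the kinases, Stat3 and Socs3 had higher signals in ES cells, and Pim1 was the 1 member with a higher signal in round sperm cells. Of 13 probe sets, 12 were called between RahES and round sperm cells, against 71.5% of 14071 probe sets tested; 11 were higher in RahES (43.6% of all tested) and 1 was lower (27.9%). Between DA5-3 and round sperm cells all 13 were called, against 71.9%, with 12 higher in DA5-3 (43.5%) and 1 lower (28.4%). Both comparisons share the round sperm arrays. Of the 13, 8 were below 100 on every round sperm array and passed the filter only through the ES arrays, where they are high. Their calls add nothing to these counts. The median log2 fold change of the 13 was 3.01 for RahES and 3.37 for DA5-3, or 2.12 and 2.04 with each probe set that had only a bound placed at it. Over all tested probe sets the medians were 0.62 and 0.59 with no bounds placed, so they compare with 3.01 and 3.37 only. Under median centring the medians over all tested probe sets were 0.02 and 0.04, and that of the 13 was not computed. Of all probe sets called, 60.9% were higher in RahES and 60.5% in DA5-3, and 49.9% and 50.2% under median centring. All 13 kept their direction under both other scalings of the arrays.

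Stat3 was the member with the largest bound between ES cells and round sperm cells. Its probe set 1370224_at gave 69.1, 80.0 and 84.9 in round sperm cells, all below 100, against 2104 to 2430 over the 6 RahES arrays and 1915 to 2507 in DA5-3, with no overlap. RahES was at least 22.9-fold higher and DA5-3 at least 21.8-fold higher. For 1371781_at round sperm cells gave 82.8, 67.3 and 80.3, and the bounds were 6.78-fold for RahES and 6.75-fold for DA5-3. An "at least" fold here sets the brighter group against the signal limit of 100, because every array of the dimmer group was below it.

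Lifr was below 100 on every round sperm array at both probe sets, while Il6st stayed measurable there at 1371926_at. Lifr 1395957_at gave 7.38, 30.8 and 16.7 there, so that RahES was at least 8.66-fold and DA5-3 at least 10.3-fold higher. Lifr 1369228_at gave 13.3, 87.0 and 7.49, with bounds of 3.74-fold and 4.11-fold. The Il6st probe set with the highest signals, 1371926_at, remained measurable in round sperm cells at 217, 209 and 198. Its log2 fold change was 3.78 ± 0.05 for RahES (adjusted p = 5.1e-17) and 4.16 ± 0.06 for DA5-3 (adjusted p = 1.5e-16). Il6st 1370957_at gave 136, 145 and 79.5 in round sperm cells, with log2 fold changes of 4.15 ± 0.13 and 4.64 ± 0.15. The other Il6st probe sets were below 100 on every round sperm array, at 33.7 to 53.0 for 1373140_at and at 1.79 to 19.4 for 1383489_at.

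Of the kinases, Jak2 gave 14.3, 16.9 and 41.8 in round sperm cells and was at least 3.23-fold higher in RahES and at least 4.12-fold higher in DA5-3. Jak1 1383478_at gave 202, 147 and 143 there, above the limit on every array, with log2 fold changes of 2.39 ± 0.10 for RahES (adjusted p = 8.3e-12) and 1.58 ± 0.12 for DA5-3 (adjusted p = 6.6e-09). Jak1 1384060_at gave 88.2, 104 and 66.7 in round sperm cells and was the 1 probe set not called against RahES, at 0.89 ± 0.18 (adjusted p = 0.000317). Under median centring its difference was 0.34 ± 0.17 (adjusted p = 0.0778), and without round sperm replicate 2 it was 1.01, past the size limit. Against DA5-3 it was called at 1.63 ± 0.21 (adjusted p = 3.8e-06).

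Socs3 gave 55.1, 30.3 and 52.2 in round sperm cells, and was at least 2.30-fold higher in RahES and at least 1.63-fold higher in DA5-3. Pim1 went the other way, with 2102, 2159 and 2182 in round sperm cells against 199 to 312 over the 9 ES arrays. The lowest round sperm array was thus several times the highest ES array. The log2 fold change was -2.91 ± 0.10 for RahES (adjusted p = 1.5e-12) and -3.17 ± 0.12 for DA5-3 (adjusted p = 3.6e-12).

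**Figure D3:**
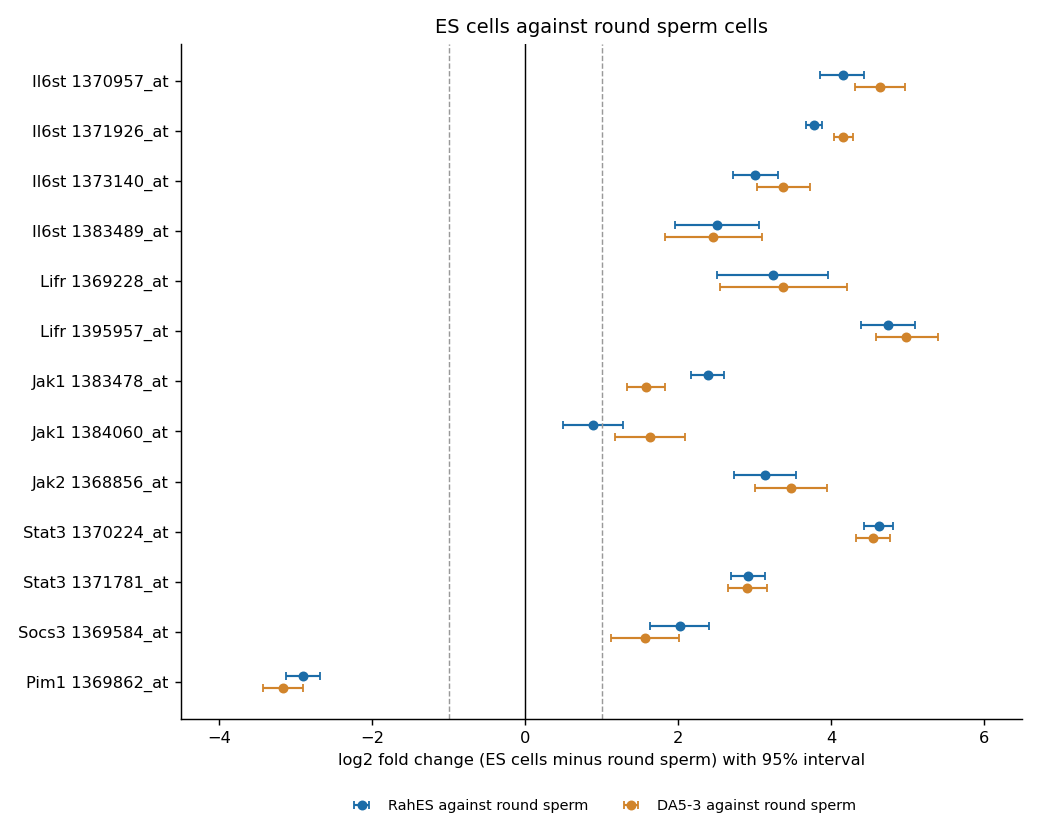
Log2 fold change of each probe set in RahES and in DA5-3 against round sperm cells, with 95% intervals from limma. Pim1 lies below 0 and the other 12 probe sets lie above it; folds against groups below 100 on every array are bounded only from below.

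**Figure D4:**
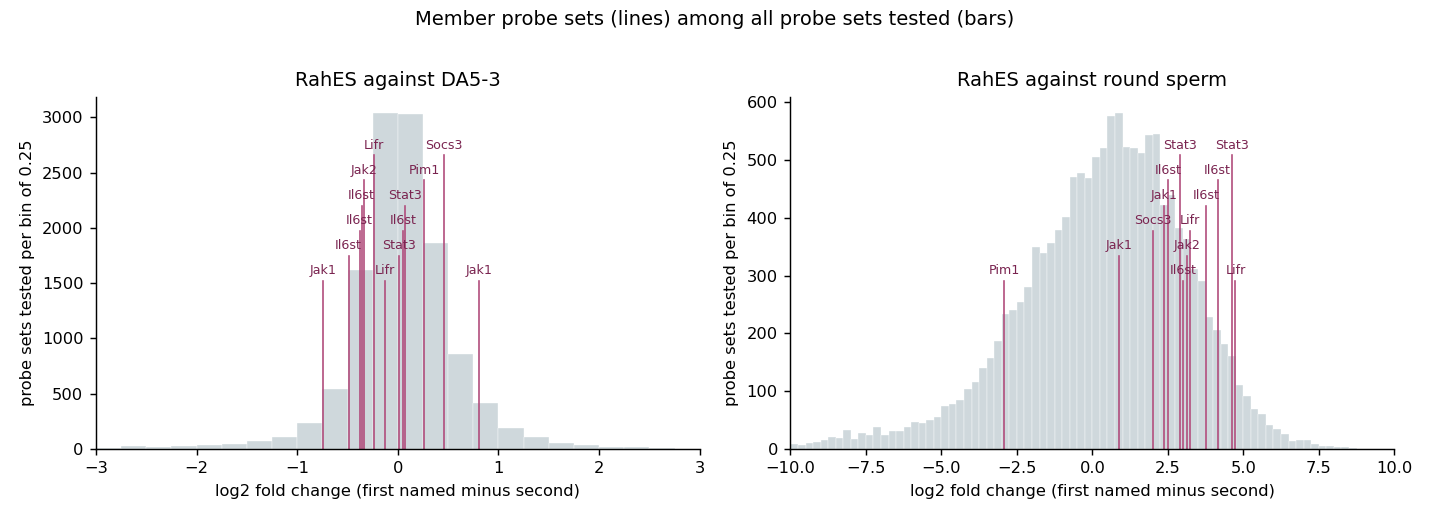
Distribution of log2 fold changes over all tested probe sets, with the 13 pathway probe sets as labelled lines, for RahES against DA5-3 and RahES against round sperm cells. The axes leave out the outermost probe sets. In the first comparison the 13 lie between -0.74 and 0.81, and in the second between -2.91 and 4.74.

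For Il6st the order of the group means was the same at 3 of 4 probe sets, with DA5-3 highest, RAH-2 and RAH-6 next and round sperm cells lowest, and RAH-6 and RAH-2 did not differ beyond their spread. For Lifr the order of DA5-3 over the haploid lines exceeded the spread at 1 of its 2 probe sets. For Stat3 the 3 ES lines had no order beyond their spread. Group means of Socs3 ran from the haploid lines down to DA5-3 and then to round sperm cells. Its step to DA5-3 did not pass the adjusted p in 11 of 21 alternatives for RAH-6 and in 5 of 21 for RAH-2. Pim1 ran from round sperm cells down to the ES lines, whose arrays overlapped.

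Some markers of other cell types reached 100 in the round sperm arrays. Leydig cell markers summed to 632 to 970 over 5 genes, all of them at 100 or more on some array. Sertoli cell markers summed to 525 to 561, with Clu at 272 to 330, Wt1 at 101 to 106, and Amh, Inha and Rhox5 below 100 on every array. Endothelial markers summed to 30.3 to 104, with all 3 genes below 100. Macrophage and blood markers summed to 13882 to 15071, of which Aif1 alone gave 11711 to 13270 and Hbb 1247 to 1633. Of the 7 genes on the array 5 reached 100, with Csf1r at 134 to 180, Tyrobp at 147 to 161 and Cd68 at 75.2 to 137, and Ptprc and Laptm5 were below 100 on every array. Their part in the Pim1 and Il6st signals of round sperm cells was not tested.

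Beyond the members, 63 further genes of the pathway were listed by role; 59 were on the array and 44 passed the filter in the ES arrays. Each gene was represented by its brightest probe set. Between RahES and DA5-3, 1 of 44 was called higher (3.73% of all genes) and 3 were called lower (2.92%), with a median log2 fold change of -0.06 against 0.03 over all genes. Fos, an immediate early transcription factor, rose, from 1861, 2032 and 2100 in DA5-3 to between 4078 and 5580 in RahES (1.14 ± 0.07, adjusted p = 1.4e-07). The cyclin gene Ccnd1, which drives entry into the cell cycle, fell: it lay between 4070 and 4756 in DA5-3 and between 896 and 1327 in RahES (-1.98 ± 0.07, adjusted p = 9.6e-10). Cebpb, a transcription factor of acute phase and fat cell genes, also fell, with signals between 3830 and 4436 in DA5-3 and between 1019 and 1946 in RahES (-1.37 ± 0.12, adjusted p = 2.0e-06). The cytokine gene Il6 was below 100 on every RahES array and at 127 to 182 in DA5-3, at least 1.52-fold lower in RahES. It passed the filter only through the DA5-3 arrays, where it is high, so its call adds nothing to the count of genes that were lower. The fibroblast markers given above differ between the same groups, and their part in these differences was not tested.

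None of the 12 measured STAT3 targets known from mouse ES cells was called between RahES and DA5-3, with a median log2 fold change of -0.30; of all genes 3.73% were called higher and 2.92% lower, so the count is near that share. Values for 4 of them, chosen after they were seen, were -0.80 ± 0.08 for the kinase gene Pim2 (adjusted p = 5.5e-06), -0.67 ± 0.05 for the pluripotency factor Klf4 (adjusted p = 3.7e-07), -0.57 ± 0.07 for Sall4 (adjusted p = 4.1e-05) and 0.55 ± 0.10 for the kinase gene Pim3 (adjusted p = 0.000446). Pim2 passed the size limit in RAH-6 alone against DA5-3 (-1.07 ± 0.09, adjusted p = 2.0e-06). Between RAH-6 and RAH-2, 0 of the 44 genes were called higher (0.568% of all genes) and 1 was called lower (0.193%). That gene was Gbx2, a homeobox gene that STAT3 can induce in mouse ES cells, at 714, 681 and 647 in RAH-6 and 1661, 1110 and 1645 in RAH-2 (-1.07 ± 0.13, adjusted p = 0.000368). Of the inhibitors 0 of 10 were called, and of the adaptors that lead to the ERK and PI3K routes 0 of 5, also near the share over all genes. The ligand gene Lif was at 2.02 to 36.7 over the 9 ES arrays and at 3.67 to 24.9 in round sperm cells, below 100 on every array.

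**Figure D5:**
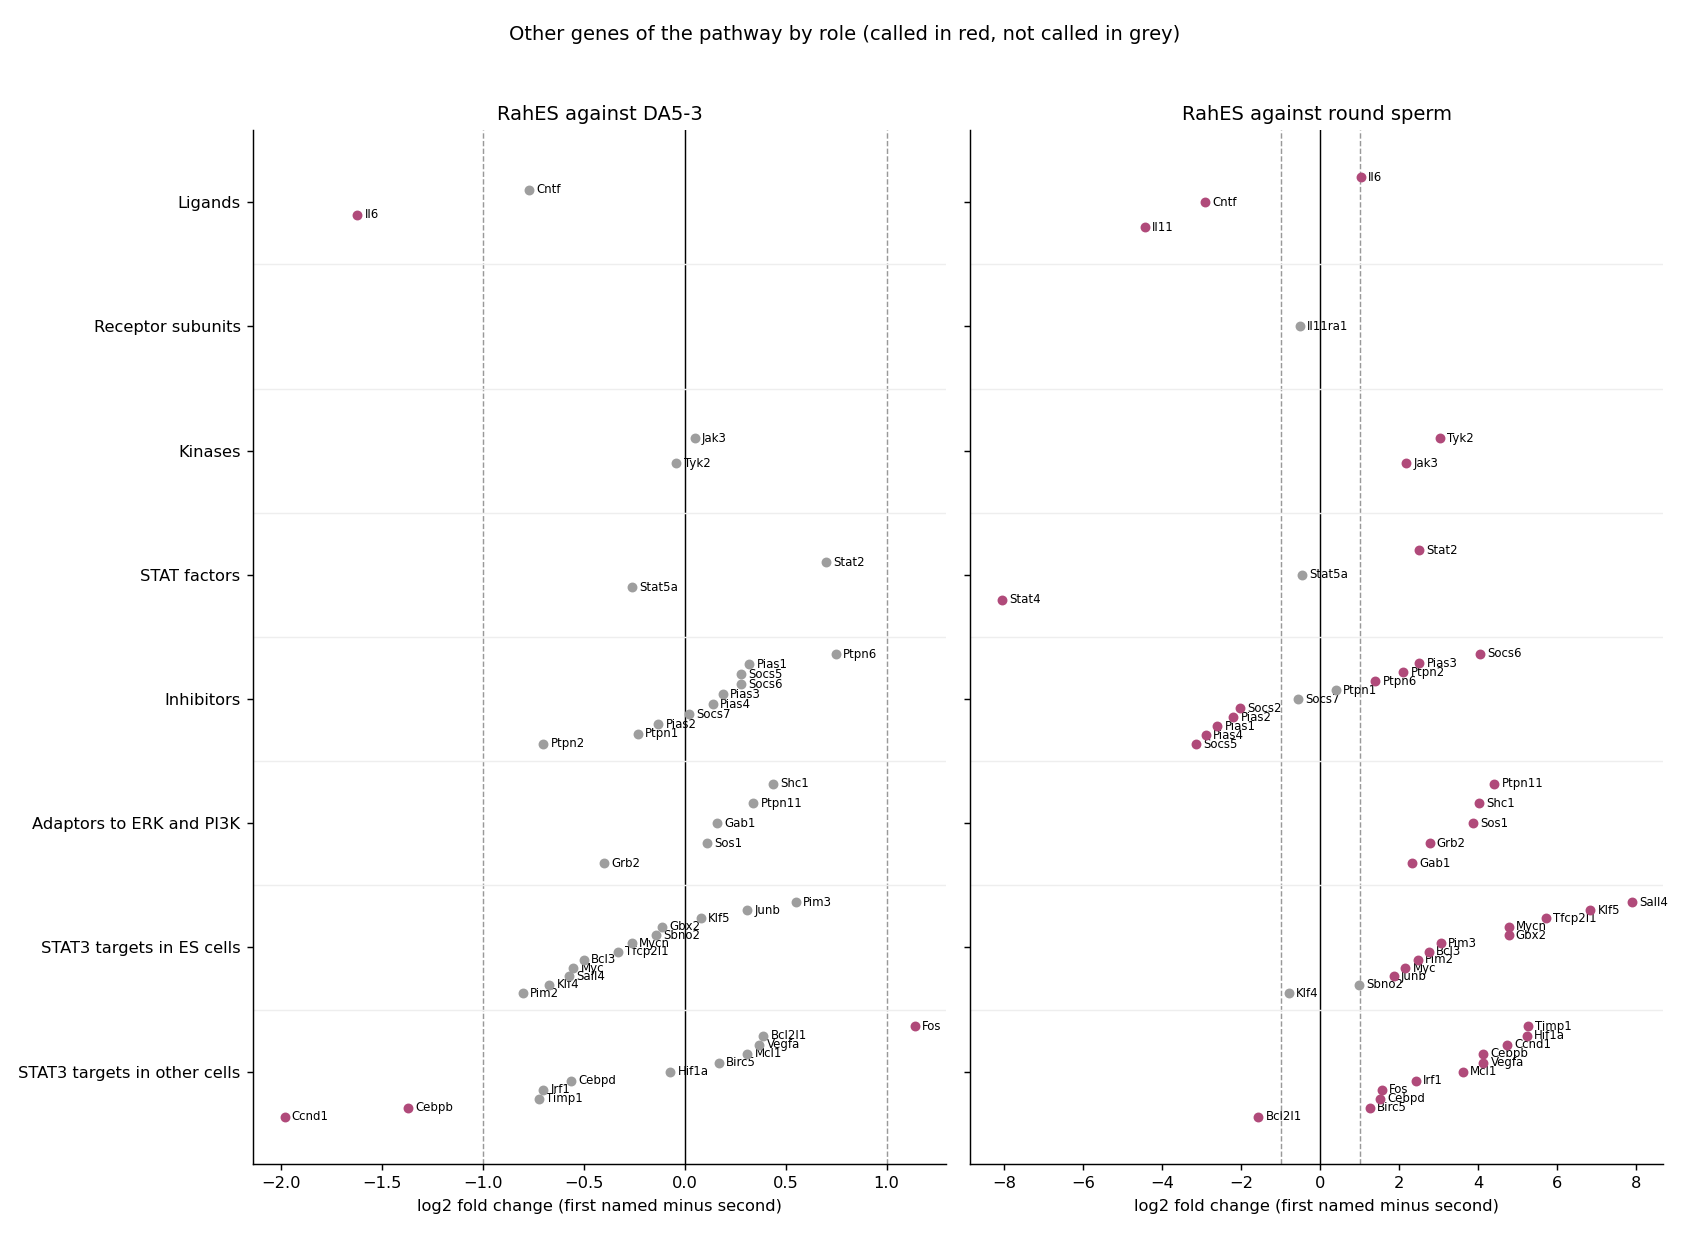
Log2 fold change of the other measured genes of the pathway by role, for RahES against DA5-3 and RahES against round sperm cells; called genes are red, the others grey, and dashed lines mark the size limit of 1. Fos, Ccnd1, Cebpb and Il6 are called in the first comparison.

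Against round sperm cells, 48 of the 63 listed genes passed the filter, of which 33 were called higher in RahES (43.2% of all genes) and 9 lower (28.9%). In DA5-3 the counts were 32 higher (43.2%) and 9 lower (29.5%). Genes below 100 on every round sperm array, or on every ES array, passed the filter only through the other cells. Their calls add nothing to the counts here and by role below. The median log2 fold change of the 48 was 2.25 for RahES, against 0.59 over all genes. Stat4, a STAT factor known mainly for interleukin-12 signalling in lymphocytes, gave 13615, 13296 and 12735 in round sperm cells and 21.9 to 44.9 in RahES, at least 132-fold lower in RahES. Stat2, which acts in interferon signalling, went the other way and was at least 3.85-fold higher in RahES. Both other kinases of the family, Tyk2 and Jak3, were called higher in RahES, Tyk2 at least 5.10-fold, while Jak3 averaged 98.5 in RahES and so lay near the limit.

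Among the ligands, Il11 was at 455, 533 and 633 in round sperm cells and at 2.74 to 18.4 in RahES, at least 5.35-fold lower in RahES. Cntf, the ciliary neurotrophic factor gene, was at 1248, 1300 and 1274 in round sperm cells against 116 to 183 in RahES (-2.92 ± 0.13, adjusted p = 1.8e-11). Il6 was called, but all arrays of both groups were below 100. Inhibitors were split, with 4 higher and 5 lower in RahES of 11 measured. Socs6 was at least 15.5-fold higher in RahES. Socs5 was lower at -3.14 ± 0.07 (adjusted p = 1.4e-14), and its other probe set gave -0.52. Pias1, an inhibitor of activated STAT proteins, was lower at -2.60 ± 0.07 (adjusted p = 3.7e-14). The 2 probe sets of Pias2 disagreed, at -2.20 ± 0.05 and 3.18 ± 0.08, so no direction is given for it. The count above holds it among the 5 lower by its brightest probe set alone.

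The 5 adaptors measured were all called higher in RahES, where 43.2% of all genes were called higher and 28.9% lower, among them Shc1 at 4.01 ± 0.08 (adjusted p = 1.7e-15), Gab1 at 2.32 ± 0.06 (adjusted p = 6.8e-14) and Sos1 at 3.87 ± 0.12 (adjusted p = 2.6e-13). Of 12 measured STAT3 targets of ES cells, 10 were called higher and 0 lower, read against the same shares. Sall4 was at least 56.6-fold higher in RahES, Mycn at least 17.3-fold, and Pim3 was higher by 3.05 ± 0.10 on the log2 scale. Klf5 was called higher at all 4 probe sets, but by amounts from 1.64 ± 0.07 to 6.84 ± 0.12. Klf4, singled out after its values were seen, was not called and lay at 6276 to 7284 in round sperm cells against 3436 to 4320 in RahES. Of 11 STAT3 targets of other cells, against the same shares, 10 were higher, among them Timp1 at 5.26 ± 0.08, and the 1 lower was Bcl2l1, a survival gene, at -1.56 ± 0.14 (adjusted p = 5.3e-08).

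No member was called between RahES and DA5-3, which was the condition for naming the genes with the most similar profiles. For the 3 members below these genes were chosen after the values were seen, and likeness is the mean absolute difference of log2 signals over the 12 arrays after centring each gene on its own mean, among 10540 genes. Closest to Il6st (1371926_at) were Ppib at 0.060, Plekhh1 at 0.063 and Dram2 at 0.072, where the median gene was at 1.26. Stat3 (1370224_at) lay closest to Cox8a at 0.091, Pnp at 0.093 and Ppp2r5a at 0.097, with a median of 1.51. The closest to Pim1 were Mfn2 at 0.078, Kif2c at 0.084 and Cab39l at 0.092, with a median of 1.41. All 3 profiles are dominated by the step between ES cells and round sperm cells.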

How the data were processed

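Total RNA extracted with Trizol was labelled with biotin and hybridised to 12 one-colour Affymetrix arrays. The values used were log2 MAS5 signals deposited by the authors, in 1 table for the whole series. MAS5 is named in the submitters' processing notes, and its version is not given in the sources used here. On the linear scale each array had a 2% trimmed mean of 500.2 to 500.3, as scaling to 500 gives. A separate report file was not used, because its array names occur in no label, so batches could not be examined.

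For the main fit the arrays were not rescaled further, and log2 was taken after adding an offset of 16, which understates changes of dim genes. Probe sets naming 1 gene were kept at a signal of at least 100 in at least 3 arrays of the fit. Of 31099 probe sets, 436 named several genes, 9780 none and 57 were controls; 20758 of the 20826 kept names matched the RefSeq gene table of GRCr8, which changed 0 symbols. Groups were compared with limma 3.58.1 in R 4.3.3, with a variance trend on signal, over the 9 ES arrays or, against round sperm cells, all 12; RahES is the equally weighted mean of RAH-6 and RAH-2. The fit was also run on simulated data, with known changes above the size limit in brighter probe sets. Smaller changes and dim probe sets were not tried there. No arrays held identical values. The number of arrays limits the precision.

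All probe sets of the members are named. Other pathway genes are named up to 4 called genes per role and comparison, by smallest adjusted p, with Lif; exceptions are marked. Members and lists were chosen with earlier results of these data known. Alternatives covered the offset, filter, scaling, variance trend, probe sets per gene, arrays in the fit, replicate block and left-out arrays. Start regions come from the RefSeq promoter table of GRCr8, which held 7 of the 8 genes and not Jak1.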

Additional observations from a re-analysis of the deposited data

How the results depend on the processing

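With 3 arrays a group, only differences well above the spread can be called, and signals below 100 give bounds. Of the counts under all alternatives 371 stayed within 1.5 times and 22 moved; of values of single probe sets 1634 kept direction and side, 1 lost the call, 4 gained it and 21 turned sign. The cause was not tested, except where fewer features were tested. With an offset of 64 the called probe sets over all tested were 492 for RahES against DA5-3 (772 before), 597 for RAH-6 (912), 485 for RAH-2 (764) and 30 for RAH-6 against RAH-2 (83). That last count was 128 with no filter on low signal, 52 with the filter at 200, 136 without the 3 doubted arrays, and 52 to 154 with 1 replicate left out in turn, moving past 1.5 times without RAH-2 replicate 1 (52), RAH-2 replicate 2 (154) or RAH-2 replicate 3 (54). With 1 probe set per gene 7 members entered; 5 passed the adjusted p in RahES and 5 in RAH-6 against DA5-3, and 7 were called and 7 passed the adjusted p against round sperm cells, for RahES and for DA5-3. Without the 3 doubted arrays 1 member probe set was called in RAH-2 against DA5-3, Jak1 1384060_at. Between RAH-6 and RAH-2, 1 passed the adjusted p under median centring, quantile normalization, the compared arrays only and without the 3 doubted arrays, and 0 to 1 with 1 replicate left out, the 1 without DA5-3 replicate 1. Jak1 1384060_at passed the size limit against round sperm cells in RahES at an offset of 1 (1.01) and on the deposited log2 values (1.02), and Jak1 1383478_at missed it in DA5-3 under quantile normalization (0.97).

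Sign changes were small. For RahES against DA5-3 Stat3 1371781_at was -0.03 under median centring and -0.05 under quantile normalization, and Il6st 1383489_at was -0.23 without the 3 doubted arrays. With 1 replicate left out in turn, the ranges were -0.04 to 0.04 for Stat3 1371781_at, -0.02 to 0.17 for Stat3 1370224_at and -0.24 to 0.20 for Il6st 1383489_at. For RAH-6 against DA5-3 Stat3 1371781_at ranged from -0.14 to 0.03. For RAH-2 against DA5-3 Stat3 1371781_at was -0.00 under quantile normalization and ranged from -0.00 to 0.10, and Stat3 1370224_at from -0.05 to 0.14. Between RAH-6 and RAH-2, median centring gave -0.02 for Lifr 1369228_at, Stat3 1370224_at and Jak1 1384060_at, and quantile normalization -0.02 for the last; the left-out ranges were -0.13 to 0.00 for Jak2 1368856_at, -0.01 to 0.12 for Lifr 1369228_at, -0.10 to 0.01 for Socs3 1369584_at, -0.16 to 0.01 for Pim1 1369862_at and -0.13 to 0.25 for Jak1 1384060_at.

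Same-numbered arrays did not deviate together: the 18 correlations ran from -0.081 to 0.061 and 2 arrays correlated best with their own number. With the replicate block, 0 of 13 members were called in each comparison of ES lines, 9 passed the adjusted p for RahES against DA5-3, 8 for RAH-6, 6 for RAH-2 and 0 between the haploid lines, and 12 and 13 were called against round sperm cells. All tested probe sets called were 772, 914, 766 and 84 among ES lines and 10066 and 10123 against round sperm cells. Pim1 passed the adjusted p for RahES against DA5-3 with the block (0.0495).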
